A study of Mus musculus with 6 samples.

Results

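A set of 10 long non-coding RNAs (Malat1, Neat1, Meg3, Rian, Mirg, Airn, Kcnq1ot1, Snhg11, Snhg1 and Gas5) was described in mouse liver across 48 probe sets, out of 45101 on the array. They were chosen by gene name with the mutant-control differences of these arrays already known, and every probe set annotated to exactly 1 of the 10 symbols was kept. A further 2 probe sets carried a second symbol and were set aside. Most of these RNAs read brighter in mutants than in controls, as did 29345 of the 45037 probe sets that are not array controls. Malat1 and Neat1, on their brightest probe sets, read 1.15 and 1.23 higher on the log2 scale, the 4 brightest Meg3 probe sets 1.65 to 2.65 higher, and single probe sets of Airn, Snhg1 and Snhg11 1.24 to 1.95 higher. Of the 48, 4 were higher at an adjusted p under 0.05 from limma, beside 1.25% of all probe sets. With any 1 mouse other than mutant 1 left out, that count was 0. The Malat1, Neat1, Meg3 and Snhg11 probe sets just given did not pass. Other probe sets read as low as -0.61 for Snhg1 and 0.05 for Snhg11. Neat1 differed by -0.05 on its other probe set, and without mutant 3 the Meg3 values were 0.95 to 1.90. Gas5 was lower in mutants on 3 of its 4 probe sets, none of them at that adjusted p, and 0.30 higher on its brightest.

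The mutants were 3 B6.Alb/cre,Pdss2loxP/loxP mice, aged 176, 178 and 224 days, and the controls were 3 B6.Pdss2loxP/loxP mice, aged 209, 213 and 140 days. Both groups carry a loxP-flanked Pdss2, and only the mutants carry cre recombinase under the albumin promoter, which is active in hepatocytes, so that the presence of cre and the loss of Pdss2 cannot be told apart. Pdss2 encodes a subunit of the enzyme that makes the isoprenoid tail of coenzyme Q, a lipid electron carrier of the mitochondrial respiratory chain. The labels describe all 6 mice as male, house the genotypes in separate cages and name control 1 as the concurrent control of mutant 3. RNA of whole liver was hybridised, with 1 array per mouse, so a change in RNA per cell and a change in the share of a cell type cannot be told apart. Hepatocyte markers were bright on all 6 arrays, with summed linear levels of 62170 to 82008 in mutants and 78859 to 81891 in controls.

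Long non-coding RNAs are transcripts of no known protein product. Malat1 and Neat1 are abundant RNAs that stay in the nucleus, where Malat1 gathers in nuclear speckles, the stores of splicing factors, and Neat1 is the scaffold on which paraspeckles are built. Meg3, Rian and Mirg are made from the maternal chromosome of the imprinted Dlk1-Dio3 domain, and Airn and Kcnq1ot1 are made from the paternal chromosome and silence neighbouring genes in cis. Snhg1, Snhg11 and Gas5 are host RNAs whose introns carry small nucleolar RNAs (snoRNAs), and Gas5 is known as a growth-arrest transcript whose spliced form is quickly degraded. In the RefSeq gene table (GRCm38.p6) all 10 are annotated as lncRNA. Malat1 and Neat1 are neighbours on chromosome 19, which also holds Snhg1, and Meg3, Rian and Mirg follow each other on chromosome 12, where they contain 1, 3 and 10 annotated microRNA hairpins. Airn overlaps Igf2r on chromosome 17, and Kcnq1ot1 lies inside Kcnq1 on chromosome 7.

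The start-site sequences of 4 of these RNAs are shown because they stand for the patterns described below: Malat1 for the nuclear RNAs, Meg3 for the imprinted domain with the greatest differences, and Snhg1 and Gas5 for the host RNAs whose probe sets differed in opposite directions. Each is a window of 300 bases from RefSeq (GRCm38.p6), with 250 bases before the annotated start, printed on the strand of the gene. Capitals mark the letters TATAAA and TGACGTCA, the core of a cAMP response element, on either strand, and the first transcribed base with any run of pyrimidines that begins there.
Malat1, chr19:5802623-5802922, minus strand: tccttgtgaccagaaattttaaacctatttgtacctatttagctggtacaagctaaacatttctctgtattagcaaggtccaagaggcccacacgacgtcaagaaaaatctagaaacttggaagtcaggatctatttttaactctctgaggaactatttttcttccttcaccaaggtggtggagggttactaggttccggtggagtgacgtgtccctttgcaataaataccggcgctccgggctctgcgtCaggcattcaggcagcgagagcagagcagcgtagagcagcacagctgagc
Meg3, chr12:109540746-109541045, plus strand: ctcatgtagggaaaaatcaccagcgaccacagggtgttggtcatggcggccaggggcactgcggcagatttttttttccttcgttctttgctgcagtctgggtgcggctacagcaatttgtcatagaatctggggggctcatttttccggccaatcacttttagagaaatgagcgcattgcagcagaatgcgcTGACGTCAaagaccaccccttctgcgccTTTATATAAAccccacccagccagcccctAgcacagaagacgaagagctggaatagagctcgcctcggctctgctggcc
Snhg1, chr19:8723237-8723536, plus strand: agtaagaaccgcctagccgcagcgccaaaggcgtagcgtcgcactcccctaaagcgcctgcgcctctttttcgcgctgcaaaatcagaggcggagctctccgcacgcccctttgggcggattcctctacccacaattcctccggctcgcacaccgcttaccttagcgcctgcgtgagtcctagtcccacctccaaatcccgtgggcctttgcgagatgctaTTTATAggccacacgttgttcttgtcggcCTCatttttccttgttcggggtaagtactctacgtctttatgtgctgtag
Gas5, chr1:161034916-161035215, plus strand: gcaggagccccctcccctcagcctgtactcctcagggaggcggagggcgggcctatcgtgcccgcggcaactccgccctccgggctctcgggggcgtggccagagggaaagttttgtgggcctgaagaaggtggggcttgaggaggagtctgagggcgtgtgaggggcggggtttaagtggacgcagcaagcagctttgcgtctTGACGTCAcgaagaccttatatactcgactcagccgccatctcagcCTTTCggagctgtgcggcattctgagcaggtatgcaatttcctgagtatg

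The Meg3 window held TATAAA on both strands, overlapping. The match on the opposite strand begins 29 bases before the start, and the one on the strand of the gene begins nearer to it. TGACGTCA lay 57 bases before the start. The Gas5 window shown, the second of 2 annotated starts, held TGACGTCA 46 bases before the start, and its transcript begins with C in a run of 5 pyrimidines, the form of a terminal oligopyrimidine tract that marks messages of the translation machinery. The Snhg1 transcript begins with a run of 3 pyrimidines, and its window held TATAAA on the opposite strand 29 bases before the start. The Malat1 window held neither motif. Among 32851 start-site windows of the same length, 13.6% held TATAAA, 1.79% held TGACGTCA and in 2.51% the transcript begins with C and at least 4 more pyrimidines. In the 11 windows of 9 of the 10 RNAs, CpG dinucleotides numbered 33 and 19 at Gas5, 25 at Snhg1, 21 at Snhg11, 13 and 1 at Meg3, 10 at Malat1 and at Mirg, 9 at Kcnq1ot1, 3 at Airn and 0 at Rian, against a median of 7 over all windows. These matches are letters in a window and were not set against the arrays.

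A difference is the mutant mean less the control mean of a probe set's log2 intensity, its error is the standard error from limma, and its sign follows the group names of the labels. The study describes the oxidative phosphorylation pathway as higher in mutants, from gene set enrichment over a KEGG set. On these arrays 125 of 170 probe sets of respiratory chain and ATP synthase genes, taken by the start of their symbols, were lower in the mice labelled mutant. Their median was -0.65, with 4 called higher and 1 lower. A count of signs over this set is neither the measure nor the gene set of the study. Pdss2 itself, on 1444085_at, read 6.94, 6.88 and 7.05 in mutants and 7.46, 7.47 and 7.56 in controls, a difference of -0.54 with no overlap (exact two-sided permutation test, p = 0.1, the smallest that 3 mice against 3 allow). Its other probe sets, 1430723_at and 1459473_at, differed by 0.40 and 0.35 with overlap (p = 0.4 and p = 0.5 from the same exact test). None of the sources places these probe sets in the gene, so that they do not check the deletion. The value on 1444085_at runs the way the labels say, and every direction below follows the labels.

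Over the 48 probe sets, 41 differences were positive, beside 29345 of all 45037 probe sets that are not array controls. The median difference was 0.47 over the 48, beside 0.17 over all. At an adjusted p under 0.05 from limma, 4 were called higher in mutants, against a background of 1.25% of all probe sets, and none was called lower, against 0.746%. At an unadjusted p under 0.05 from limma, 18 were higher and 2 lower, beside 11356 of all 45037 in either direction. The counts at that p given for lists below stand beside this same share of all probe sets. All 3 mutants lay above all 3 controls on 21 probe sets, against 21.2% of all, and below them on 1, against 10.7%. The rule chose the RNAs on this same contrast, so these counts describe them and nothing was tested. The 4 called probe sets belong to Malat1 (1452378_at and 1427285_s_at), Airn (1451634_at) and Snhg1 (1433675_at). Just outside the threshold were Neat1 on 1428083_at and Malat1 on 1438403_s_at, whose differences were 1.23 and 1.15. The number called was 10 without mutant 1, beside 2.86% of all probe sets called higher, and 0 without each other mouse. It was 3, beside 0.333% of all, with each array centred on its median. Malat1 on 1427285_s_at then differed by 1.04 and was no longer called. All mutants lay above all controls on the 4 called probe sets, so that leaving out a mouse could not change a sign there.

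**Figure D1:**
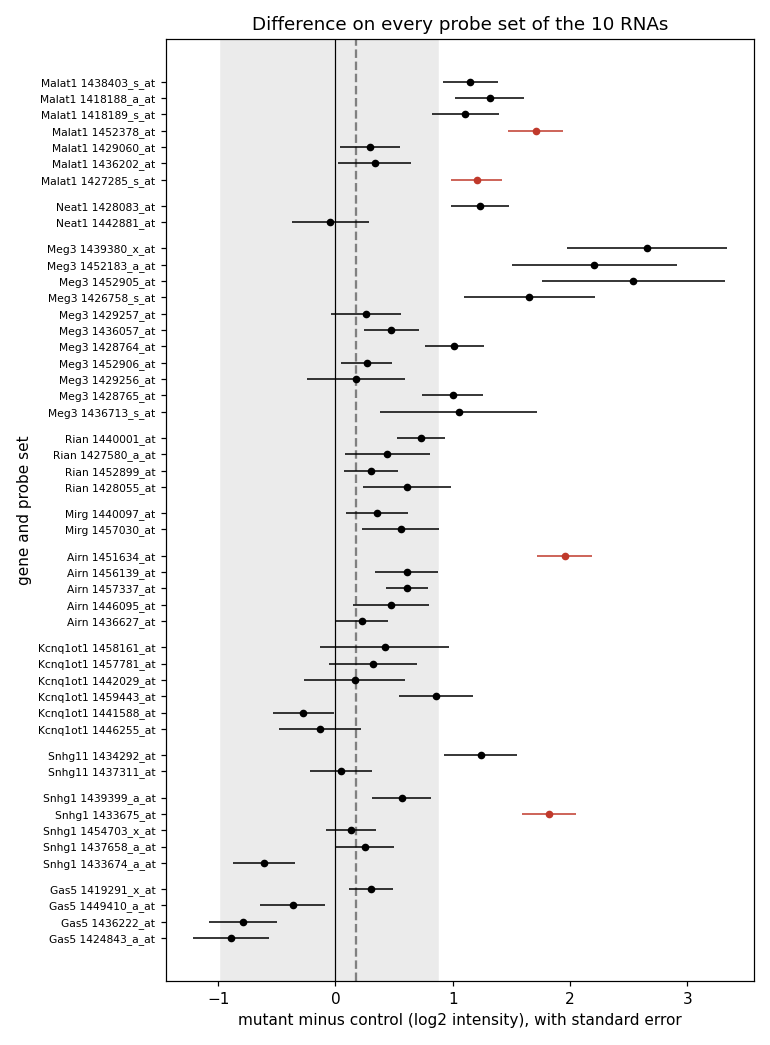
Difference between mutants and controls (horizontal axis, log2 intensity) on each of the 48 probe sets (vertical axis), with standard errors from limma as bars and called probe sets in red. The dashed line is the median of all probe sets (0.17) and the grey band runs from the 5th to the 95th percentile of all differences (-0.98 to 0.88); the 4 red points lie at 1.20 to 1.95.

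Malat1 was read by 7 probe sets, and all 7 differences were positive, from 0.29 to 1.71. On the brightest, 1438403_s_at, mutants 1 to 3 read 12.52, 13.07 and 13.07 and controls 1 to 3 read 11.95, 11.56 and 11.71. Every mutant was above every control there, with a difference of 1.15 and a standard error of 0.23. The same order was found on 1418188_a_at, where mutants read 11.50, 12.47 and 12.39 and controls 11.05, 10.74 and 10.63, a difference of 1.31. On 1452378_at mutants read 9.17, 9.87 and 9.53 and controls 7.996, 7.81 and 7.64, so that the group means of 9.52 ± 0.35 and 7.82 ± 0.18 (SD, n = 3) lay 3.26-fold apart. The probe sets 1418189_s_at and 1427285_s_at also separated the groups, with differences of 1.11 and 1.20. On the remaining 1429060_at and 1436202_at the groups overlapped, with differences of 0.29 and 0.33, and control 1 read above mutant 1 on both. Across the 5 probe sets that separated the groups, mutant 1 was the lowest mutant on 4, and mutant 3 was the lowest on 1427285_s_at.

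Neat1 was read by 2 probe sets that gave different answers. On 1428083_at mutants read 12.41, 12.50 and 12.75 and controls 10.89, 11.46 and 11.61. The groups did not overlap and the difference was 1.23 with a standard error of 0.25, or 2.35-fold. On 1442881_at, which is dimmer, mutants read 6.94, 7.52 and 8.09 and controls 7.96, 7.41 and 7.32, and the difference of -0.05 was smaller than the spread within either group. The lowest mutant on this probe set, mutant 1, lay below all controls, and the highest, mutant 3, lay above them.

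**Figure D2:**
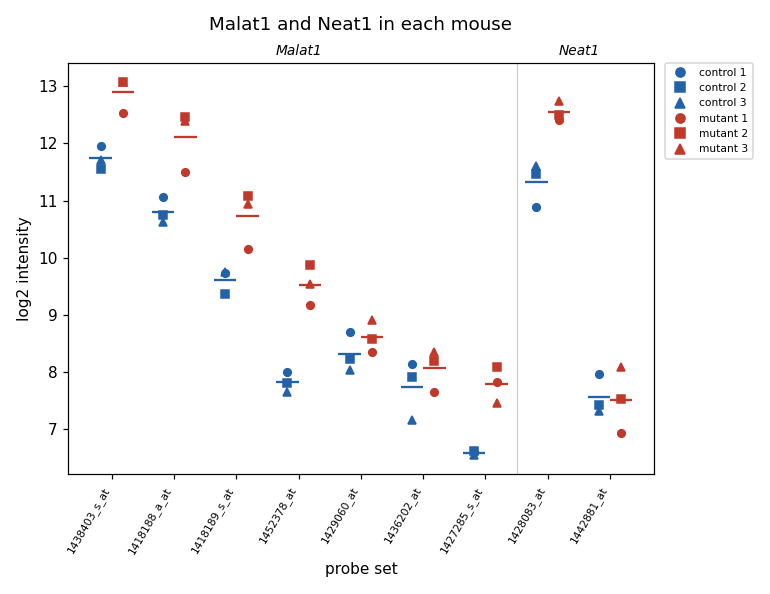
Log2 intensity (vertical axis) of each Malat1 and Neat1 probe set (horizontal axis) in each control (blue) and mutant (red), with the marker shape giving the replicate number and bars at the group means. All mutants sit above all controls on 5 of 7 Malat1 probe sets and on 1 of 2 of Neat1.

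The genes around Malat1 and Neat1 did not share a called difference. Of 21 probe sets of 12 flanking genes none was called higher or lower by limma, with a median of 0.21, and the smallest p values were those of Ltbp3, which encodes a binding protein of latent TGF-beta, with values of 0.88 and 0.83 and of 0.48 and 0.03 on its other probe sets. At an unadjusted p under 0.05, 5 of the 21 were higher and 0 lower. Among 68 probe sets of 18 nuclear speckle proteins, 6 of 5 genes were higher and none lower, or 8.82% higher beside 1.25% of all. At an unadjusted p under 0.05, 11 were higher and 9 lower, and the median was -0.12 over all probe sets of the list and 0.22 over the brightest of each gene. Srrm2, which encodes the large scaffold of speckles, rose by 1.88 on its brightest probe set, 1438688_at, where mutants read 12.99, 13.23 and 13.05 and controls 11.34, 11.30 and 11.00, and it read 0.34 and -0.06 on its other probe sets. Son, the second scaffold protein, rose by 1.78 on 1420952_at, and its other probe sets lay between -1.01 and 0.32. Luc7l3, a splicing factor, rose by 1.98 on 1451485_at and read -0.79 and -0.38 on others. Thoc2, a subunit of the mRNA export complex THO, rose by 1.86 and 1.99 and read -0.68 on another, and the splicing factor Srsf3 rose by 1.49 on 1 of its probe sets and read -0.55 to 0.03 on the others (Thoc2 was named after its values were seen). For each of these 5 genes, as for Malat1 and Neat1, probe sets of 1 gene gave unequal differences. Over the 11 gene lists other than markers, 10 probe sets were called higher and 6 lower, against 18 and 22 without mutant 1 and none without each other mouse.

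Among 68 probe sets of 21 paraspeckle proteins only Smarca4, a chromatin remodelling ATPase, was called, higher by 1.85 on 1426805_at and reading 0.16 on its other probe set. At an unadjusted p under 0.05, 9 were higher and 20 lower, and the median was -0.19 over all probe sets of the list and 0.12 over the brightest of each gene. The core paraspeckle proteins that bind Neat1 were not called in either direction. Sfpq read from -0.60 to 1.39 over 6 probe sets, Nono from -1.16 to 0.56 and Pspc1 -0.26 and -0.28. The brightest Sfpq probe set, 1436898_at, read 10.43, 11.60 and 11.64 in mutants and 10.38, 10.27 and 8.85 in controls. Every mutant was above every control there, although the lowest mutant and the highest control were nearly level.

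Meg3 was read by 11 probe sets, and all 11 differences were positive, from 0.18 to 2.65, although the smallest, on 1429256_at, was -0.01 after quantile normalisation. None of them was called, and mice of the same group differed widely. On 1439380_x_at, the brightest, mutants 1 to 3 read 9.45, 9.75 and 11.88 and controls 1 to 3 read 8.71, 7.30 and 7.11, a difference of 2.65. On 1452183_a_at mutants read 8.53, 9.04 and 11.28 and controls 8.19, 6.74 and 7.29, a difference of 2.21. On 1426758_s_at they read 8.21, 8.52 and 10.48 against 7.78, 7.18 and 7.28, a difference of 1.65. On these 3 the groups did not overlap, yet mutant 3 stood at least 1.96 above both other mutants and control 1 was the highest control. On 1452905_at mutants read 8.26, 9.52 and 11.28 and controls 8.33, 6.51 and 6.61, so that mutant 1 lay just below control 1 and the groups overlapped in spite of a difference of 2.54.

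Of the dimmer Meg3 probe sets, 1436057_at, 1428764_at and 1428765_at separated the groups, with differences of 0.48, 1.01 and 1.00. On 1428764_at mutants read 7.14, 7.57 and 8.02 and controls 6.50, 6.59 and 6.60, and here the controls were close together. On 1436713_s_at the difference of 1.05 came with mutants at 4.82, 5.21 and 7.63 and controls at 5.22, 4.55 and 4.73. Mutant 3 alone was high on that probe set, and without it the difference was 0.18. The remaining 1429257_at, 1452906_at and 1429256_at read 0.26, 0.27 and 0.18 with overlapping groups. Without mutant 3 the differences of the 4 brightest were 1.90, 1.37, 1.74 and 0.95. In the concurrent pair alone, mutant 3 minus control 1, they were 3.17, 3.09, 2.95 and 2.70.

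**Figure D3:**
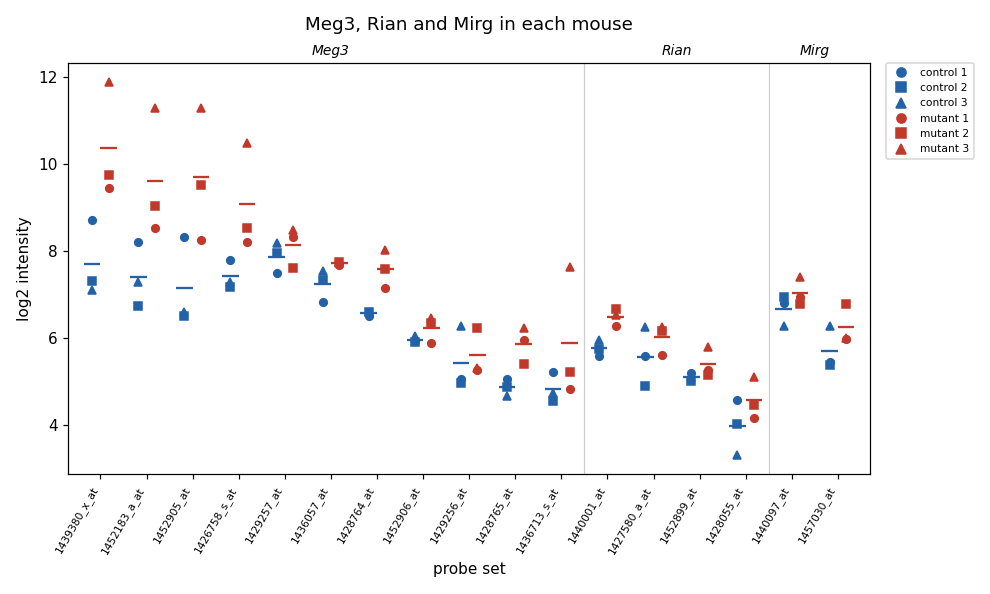
Log2 intensity (vertical axis) of each Meg3, Rian and Mirg probe set (horizontal axis) in each control (blue) and mutant (red), with the marker shape giving the replicate number and bars at the group means. On the 4 brightest Meg3 probe sets mutant 3 reads 10.48 to 11.88, above the other mutants at 8.21 to 9.75, and control 1 is the highest control.

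Rian and Mirg, which lie downstream of Meg3 and are thought to be made with it, read higher in mutants by less. The differences of Rian were 0.73 on 1440001_at, 0.44 on 1427580_a_at, 0.30 on 1452899_at and 0.61 on 1428055_at, and the groups were apart on the first only, with mutants at 6.27, 6.67 and 6.52 and controls at 5.58, 5.74 and 5.95. Those of Mirg were 0.36 on 1440097_at and 0.56 on 1457030_at, both with overlapping groups. On 1440097_at of Mirg mutants read 6.93, 6.77 and 7.39 and controls 6.80, 6.95 and 6.27. Mutant 3 was the highest mutant on 3 of 4 Rian probe sets and on 9 of 11 of Meg3. Over the 17 probe sets of the 3 RNAs the median difference was 0.61.

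The protein-coding genes of the domain gave a mixed picture. Of 42 probe sets of 14 genes in and around it limma called none in either direction (8 were higher and 6 lower at an unadjusted p under 0.05), and the median was 0.23. Dlk1, the paternally expressed growth regulator that gives the domain its name, read 7.06, 6.47 and 5.84 in mutants and 5.06, 5.16 and 5.01 in controls on 1449939_s_at, a difference of 1.38 without overlap. Mutant 1 was the highest and mutant 3 the lowest mutant there, the reverse of their order on the bright Meg3 probe sets. Dlk1 differed by 0.07 on 1442724_at. The smallest p of the list was that of Slc25a29, a mitochondrial carrier of basic amino acids, with 1.48 on 1438188_x_at. Dio3 and Rtl1 were not analysed here.

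Meg3 is also made by endothelial cells, and markers of other liver cell types were therefore set beside these values. The median deviation of the 16 probe sets of sinusoidal endothelial markers from their mean over the 6 arrays came to 0.65, 0.50 and -0.15 in the mutants and -0.24, -0.25 and -0.30 in the controls, in the order of their numbers. In these markers mutant 3 was the lowest mutant, and every mutant was above every control. Their summed level was 5508 to 9436 in mutants and 2445 to 4444 in controls, and Stab2 and Stab1, the scavenger receptors of these cells, were the 2 called higher, by 1.82 and 1.39. Limma called none of the 11 probe sets of Kupffer cell markers (3 higher at an unadjusted p under 0.05, median 0.51, summed level 2418 to 4172 in mutants and 1160 to 2388 in controls), and none of the 23 of stellate cell markers (4 higher at that p, median 0.17, summed level 3678 to 4998 and 3819 to 5297). Medians of the bile duct, lymphocyte, red cell and hepatocyte markers were 0.46, 0.16, -0.16 and -0.35, with none called and 4, 2, 0 and 1 higher at that p, and no marker of any list read 0. The part of these markers in the differences of the non-coding RNAs was not tested.

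Airn was read by 5 probe sets, with 5 positive differences from 0.22 to 1.95. On 1451634_at mutants read 9.16, 9.18 and 8.69 and controls 7.22, 7.18 and 6.77, and the difference of 1.95 with a standard error of 0.23, or 3.88-fold, was the greatest of the 4 called. Both groups were tight, and mutant 3 and control 3 were the lowest of each. The groups were also apart on 1456139_at and 1457337_at, with a difference of 0.61 on each. On the dim 1446095_at and 1436627_at they overlapped, at 0.47 and 0.22. A probe set annotated to both Airn and Igf2r, 1440979_at, differed by 0.42 with overlap.

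Igf2r, which clears insulin-like growth factor 2 and is silenced by Airn on the paternal chromosome, was read by 2 probe sets of opposite sign. On 1424111_at mutants read 7.27, 6.23 and 6.78 and controls 8.04, 8.09 and 7.87, a difference of -1.24 without overlap that limma did not call, and on 1424112_at the difference was 0.36. Slc22a2, another gene of the domain, read 0.35, and Slc22a3 was not analysed here. Of 18 probe sets of 10 genes in and around the domain 1 was called higher and 2 lower (2 and 4 at an unadjusted p under 0.05), with a median of -0.13 over all probe sets of the list and 0.12 over the brightest of each gene. Mrpl18, a mitochondrial ribosomal protein, rose by 1.39, and Sod2, the superoxide dismutase of mitochondria, fell by 1.73 and 1.54 on 2 probe sets and read -2.06 and 0.36 on the others. The sources used here give no strand or position for a probe set, so for Airn and Kcnq1ot1 the RNA of the overlapping gene cannot be told apart from the antisense RNA.

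Kcnq1ot1 was read by 6 probe sets, with differences from -0.28 to 0.86, and was the only imprinted RNA of the 10 with negative ones. Only 1459443_at separated the groups, with mutants at 7.23, 7.66 and 6.41 and controls at 6.20, 6.35 and 6.18. On the brightest, 1458161_at, mutants read 7.38, 9.09 and 9.58 and controls 8.74, 8.36 and 7.70, and the spread of 2.20 among mutants exceeded the difference of 0.42. The next, 1457781_at and 1442029_at, differed by 0.32 and 0.16, with mutant 1 lowest and mutant 3 highest of the mutants on both. Without mutant 3 the differences of these 3 bright probe sets were -0.03, -0.01 and -0.34, and without mutant 1 they were 1.07, 0.66 and 0.51. The dim 1441588_at and 1446255_at differed by -0.28 and -0.13. Among 24 probe sets of 15 genes of this domain none was called higher and 1 lower (5 and 2 at an unadjusted p under 0.05), Slc22a18, an organic cation transporter, which fell by 1.27 on 1417809_at and read 0.02 on its other probe set. Kcnq1, the potassium channel gene that contains Kcnq1ot1, read 0.43, the cell cycle inhibitor Cdkn1c 0.00 and Phlda2 0.41, each with overlapping groups.

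Snhg1 was read by 5 probe sets that spanned both signs. On 1433675_at mutants read 7.42, 7.52 and 7.18 and controls 5.51, 5.90 and 5.25, a difference of 1.82 with a standard error of 0.23, or 3.53-fold. On 1439399_a_at, the brightest, mutants read 8.65, 9.40 and 8.91 and controls 8.44, 8.63 and 8.20, so that the groups were just apart with a difference of 0.57. On 1433674_a_at mutants read 5.76, 5.34 and 6.22 and controls 6.53, 6.45 and 6.16, a difference of -0.61. The remaining 1454703_x_at and 1437658_a_at differed by 0.13 and 0.25 with overlap. The probe set with the called difference was therefore not matched by the others of the same host RNA.

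Snhg11, a host RNA known mainly from neurons, was read by 2 probe sets. On 1434292_at mutants read 10.69, 10.52 and 10.93 and controls 8.96, 10.12 and 9.36. The groups did not overlap and differed by 1.24, and the controls were spread over 1.16. On 1437311_at the difference was 0.05, with mutants at 6.34, 6.15 and 6.87 and controls at 6.17, 6.73 and 6.32.

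Gas5 was the only RNA of the 10 with more negative than positive differences. On 1424843_a_at mutants read 6.39, 6.35 and 7.41 and controls 7.93, 7.48 and 7.41, with a difference of -0.89 and no overlap, although mutant 3 and control 3 were level to 2 decimals. On 1436222_at mutants read 6.81, 6.57 and 7.58 and controls 7.90, 7.86 and 7.55, a difference of -0.79, and mutant 3 lay within the range of the controls. On 1449410_a_at the groups overlapped, at 8.72, 7.72 and 8.10 against 8.70, 8.40 and 8.54, with a difference of -0.37. On the brightest, 1419291_x_at, mutants read 10.04, 9.89 and 10.12 and controls 9.87, 9.67 and 9.61, a difference of 0.30 without overlap. The probe set shared with the snoRNA gene Snord47, 1455904_at, differed by -0.78 with overlap. Mutant 3 was thus closest to the controls on 1424843_a_at and 1436222_at.

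**Figure D4:**
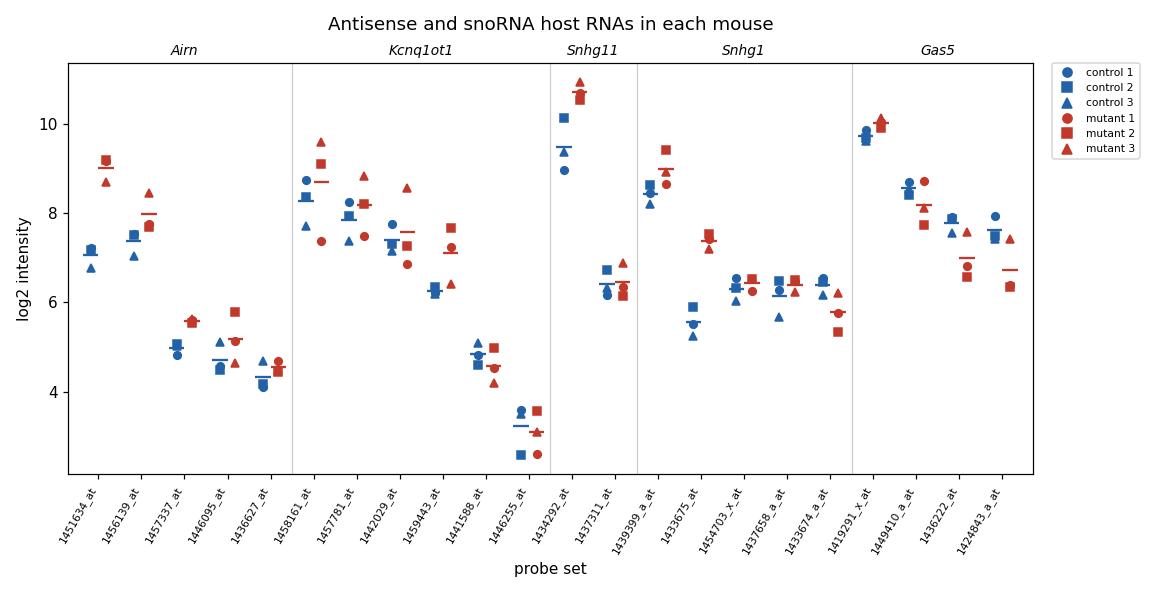
Log2 intensity (vertical axis) of each probe set (horizontal axis) of Airn, Kcnq1ot1, Snhg11, Snhg1 and Gas5 in each control (blue) and mutant (red), with the marker shape giving the replicate number and bars at the group means. Mutants are well above controls on 1451634_at of Airn and 1433675_at of Snhg1, and below them on 1424843_a_at of Gas5.

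Genes that act on snoRNAs and on host RNAs were set beside these. Of 27 probe sets of 16 proteins of snoRNA particles limma called none, with 5 higher and 1 lower at an unadjusted p under 0.05 and a median of -0.07. The smallest p values were those of Nolc1 and Nop56, an assembly factor and a core protein of such particles, with values of 0.85 and 1.14, and Fbl, the methyltransferase of the C/D class, read -0.39 and -0.11. Of 24 probe sets of 11 genes of nonsense-mediated decay, the route by which spliced Gas5 is removed, 2 were called lower and none higher, with a median of -0.04. At an unadjusted p under 0.05 the balance was the other way, with 6 higher and 2 lower. Upf1, the helicase of this route, fell by 1.45 on its 1 probe set, where mutants read 6.83, 6.52 and 6.57 and controls 8.17, 8.04 and 8.04. Rbm8a, a subunit of the exon junction complex, fell by 1.45 on 1418119_at and read -0.38 on its other probe set.

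Other long non-coding and snoRNA host RNAs were taken from a list of 48 symbols, of which 35 had a probe set. Of their 59 probe sets 2 were called higher and none lower, or 3.39% higher (11 and 4 at an unadjusted p under 0.05), and their median was 0.16, close to the 0.17 of all probe sets. Pvt1, a host RNA of microRNAs near Myc, rose by 1.16 on 1450541_at and read 0.12 to 0.76 on its other probe sets. Xist, the RNA that coats the inactive X chromosome, rose by 1.07 on 1427263_at, where mutants read 5.23, 5.30 and 5.38 and controls 4.37, 4.23 and 4.12, and it read 0.52 and -0.48 on its others, so that all its values were dim in these males. Of 57 probe sets of 24 other imprinted genes none was called higher and 1 lower (8 and 4 at an unadjusted p under 0.05), Ndn, a growth suppressor, which fell by 1.25 on 1435383_x_at and ranged up to 0.80 over its 8 probe sets. The insulin-like growth factor Igf2 read 0.43 on both its probe sets, and H19 was not analysed here. Of 59 probe sets of 24 genes that maintain imprints or belong to Polycomb limma called none, with 7 higher and 5 lower at an unadjusted p under 0.05, a median of 0.13 and the smallest p values at Ehmt2 (0.90), a histone methyltransferase, and Cbx7 (0.75), a Polycomb protein.

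**Figure D5:**
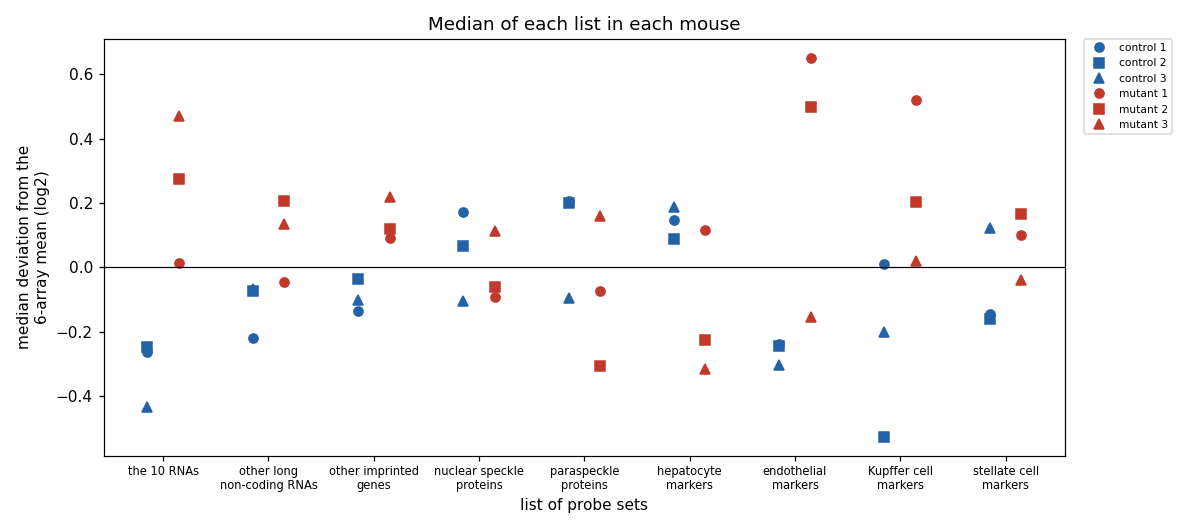
Median deviation from the mean of the 6 arrays (vertical axis, log2) over the probe sets of each list (horizontal axis) in each control (blue) and mutant (red), with the marker shape giving the replicate number. For the 10 RNAs the mutants lie at 0.02, 0.28 and 0.47 and the controls at -0.26, -0.25 and -0.43. Endothelial markers are highest in mutant 1, with every mutant above every control.

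The range among the 3 mutants had a median of 0.79 over the 48 probe sets, beside 0.60 over all, and the range among controls 0.60, beside 0.49. The median deviation of the 48 from their mean over the 6 arrays stood at 0.02, 0.28 and 0.47 in the mutants and at -0.26, -0.25 and -0.43 in the controls. Over all probe sets it was 0.03, 0.13 and 0.07 and -0.16, -0.07 and 0.01. Mutant 3 was the highest mutant on 29 of the 48, beside 14985 of all 45037 probe sets, and control 1 the highest control on 26, beside 11240. Both held on 20, or 41.7%, beside 12.4% of all probe sets. These are the 2 mice that the labels name as a concurrent pair. The age of mutant 3, 224 days, was the highest of the mutants. Control 1 was 209 days old and control 2 was older, at 213 days.

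Several measures of the arrays moved with genotype, and their part in these differences was not tested. The median log2 value of an array was 6.12 to 6.24 in mutants and 5.92 to 6.12 in controls. After centring every array on its own median, the median difference over the 48 probe sets was 0.31, beside 0.01 over all, and the probe sets called on the whole array went from 561 higher and 336 lower to 150 of each. The difference between the array's control probe sets at the end and at the beginning of Gapdh, a gauge of how complete the copied RNA was, read 0.45, -1.06 and -1.78 in mutants and 2.31, 2.02 and 2.30 in controls. For Actb the same difference overlapped, at 2.60, 3.95 and 4.50 against 3.82, 3.90 and 3.11. Probe sets with the suffix s_at, which can also detect other transcripts, had a median difference of 1.15 over the 5 among the 48. All 5 were of Malat1 or Meg3, so that suffix and gene cannot be told apart there. The 32 with the plain suffix at had a median of 0.45, those with a_at 0.34 and those with x_at 0.30. No detection calls came with these values, so that the signal over background of a dim probe set is not known.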

How the data were processed

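Liver RNA of 3 mutant and 3 control mice was hybridised to 6 Affymetrix arrays, 1 for each mouse. The authors normalised the arrays and summarised the perfect-match probes with dChip, and the deposited value is 1 log2 intensity per probe set and array, from 0 to 14.63 with 40 values of 0. The probe set identifiers belong to a mouse array, although the methods name an array of another species. Of 45101 probe sets, 64 array controls were left out. Symbols came from GEO's platform annotation, in which 34945 probe sets had 1 symbol, 932 had several and 9160 had none. The values were used without further scaling, and mutants were compared with controls by moderated linear models (limma 3.58.1, lmFit and eBayes, R 4.3.3), with Benjamini-Hochberg adjustment over all 45037 probe sets and a threshold of 0.05. The procedure was tested on simulated data. The 10 RNAs and all gene lists were chosen with earlier results of these data known. All probe sets of the 10 RNAs and of Pdss2 are named, with, in each list, up to 4 called probe sets of smallest p (and Thoc2 beyond these), or up to 2 of smallest p where none was called, and 16 genes fixed by name, including Dlk1, Igf2r, Kcnq1, Sfpq, Fbl and Igf2. Summed levels add the linear intensity of the brightest probe set of each marker gene. Alternatives were other scalings, filters on dim probe sets, 1 value per gene, other moderation, a replicate block, age as a covariate and each mouse left out. The labels give the mice as biological replicates, and precision is limited by the number of arrays. Start-site sequences and gene neighbours came from RefSeq tables of GRCm38.p6, in which all 10 RNAs were found. For the arrays no build is given in the sources used here.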

Additional observations from a re-analysis of the deposited data

Results flagged for a closer look

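The array's spiked bacterial transcripts, which are added to each sample during preparation and were not used in the comparisons, read higher on all 3 mutant arrays than on all 3 control arrays. The mutant minus control differences on the log2 scale were 1.81 for BioB, 1.66 for BioC, 1.43 for BioDn and 0.59 for Cre.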

How the results depend on the processing

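As reported, 4 probe sets of the 10 RNAs were called higher and 0 lower, 10 and 6 of the other gene lists were called higher and lower, 897 of all probe sets were called, and the median difference over the 48 was 0.47. Called lower stayed at 0 for the 10 RNAs in every setting. No called difference of theirs changed sign in any, although leaving out a mouse could not have changed a sign. With the arrays centred on their medians the RNAs had 3 higher, without Malat1 on 1427285_s_at, beside 0.333% of all. The lists had 5 higher and 1 lower and all probe sets 300 called. With values below 5 set to 5 the lists had 20 higher and all probe sets 1563 called. Among probe sets above the median level, which leaves 34 of the 48, the RNAs had 11 higher, beside 7.05% of the 22518 tested. The lists there had 27 higher and 17 lower, and all probe sets 3050 called. With the brightest probe set per gene the lists had 16 higher and all genes 1643 called. The 10 RNAs then had a median of 0.94, with 5 of the 10 higher, beside 4.92% of 18193 genes. With the mean of a gene's probe sets the RNAs had 1 higher (Airn), beside 1.7% of all genes. The lists had 4 higher and 2 lower and all genes 502 called. With trend and robust moderation the lists had 16 higher and all 1413 called. With age as a covariate the RNAs had 8 higher, beside 3.09% of all, the lists 21 higher and 16 lower and all 2515. Quantile normalisation moved none of these counts by over 1.5 times. With one mouse left out, the RNAs had 0 to 10 higher, the lists 0 to 18 higher and 0 to 22 lower and all probe sets 0 to 3840 called. The highest of each came without mutant 1, where 2.86% of all probe sets were called higher. Without each other mouse 16 to 20 of the 48 were higher and 0 to 3 lower at an unadjusted p under 0.05. In those same fits 7526 to 11749 of all 45037 passed that p in either direction. The causes were not tested. With a replicate block every count was 0 (18 of the 48 higher and 0 lower, and 7935 of all, at an unadjusted p under 0.05). Mice of the same number had deviations that correlated at 0.06, -0.50 and -0.56 across probe sets. Mutant 3 gave 0.45 with control 1, its concurrent control in the labels, and 0.40 with control 2. Mutant 2 with control 3 gave 0.62. The labels do not say that a number marks a pair, so that the block was not used. Median differences of the other imprinted genes and of the imprint maintenance genes, 0.17 and 0.13, were -0.02 and 0.01 after quantile normalisation and 0.01 and -0.04 after centring. Signal over background limits the dim probe sets and is unknown here.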
